A study of Mus musculus with 4 samples.

Results

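Translation initiation and elongation factors are described here in oligodendrocytes of the newborn mouse cortex, in libraries labelled wild type or Zfp488 KO. Zfp488 is a zinc finger gene of the oligodendrocyte lineage. The members are the gene symbols that start with Eif1 to Eif6 or with Eef1 or Eef2, without the Eif2ak kinases, the sex-linked Eif2s3x and Eif2s3y, and pseudogene symbols, which left 60 of the 35869 rows in the deposited table. Oligodendrocytes make myelin in the central nervous system. The cells were sorted as positive for both O4 and GalC from mouse cortex at postnatal day 5. Wild-type cells gave 2 libraries (WT 1 and WT 2), and cells of homozygous carriers of a knock-in allele of Zfp488, labelled Zfp488 KO, gave the other 2 (KO 1 and KO 2). No further allele or treatment is given for either genotype. The labels do not say whether libraries of 1 genotype stem from different animals, so p-values cover only the spread among these libraries, and that spread may be technical.

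Protein synthesis begins when the initiator tRNA, carried by eIF2, is loaded on the small ribosomal subunit with eIF1, eIF1A and the large eIF3 complex. The cap-binding protein eIF4E, the scaffold eIF4G and the helicase eIF4A bring the messenger RNA, eIF5 and eIF5B complete the assembly at the start codon, and the eEF1 and eEF2 factors then drive each step of the growing chain. The pathway is regulated at eIF2B, which recharges eIF2 with GTP, and at the eIF4E-binding proteins, which mTOR switches off. In brain white matter the pathway is known because inherited defects of eIF2B cause vanishing white matter disease.

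Many messages of ribosomal proteins and elongation factors carry a terminal oligopyrimidine (TOP) tract, a run of C and T bases at the start of the RNA through which mTOR sets their translation. Of 9 factors listed as TOP messages, 5 had an entry in the RefSeq promoter table (GRCm38.p6). The 30 bases around their annotated starts, 15 before and 15 from the start on, are shown because the tract is the regulatory sequence known for this class, with the longest run of C and T on the gene's strand in capitals.
Eef1a1, chr9:78481710-78481739, minus strand: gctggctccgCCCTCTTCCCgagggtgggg
Eif3f, chr7:108934400-108934429, plus strand: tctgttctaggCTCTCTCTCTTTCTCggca
Eif4b, chr15:102073758-102073787, plus strand: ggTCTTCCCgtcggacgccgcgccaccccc
Eef1b2, chr1:63176816-63176845, plus strand: tggacctgcagTTCCgccggaagtagccga
Eef2, chr10:81176616-81176645, plus strand: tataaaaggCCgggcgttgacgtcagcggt
The longest run was 15 bases in Eif3f, 10 in Eef1a1, 7 in Eif4b, 4 in Eef1b2 and 2 in Eef2. The runs of Eif4b, Eef1b2 and Eef2 lie before the annotated start, and those of Eif3f and Eef1a1 cross it. A run in this window is thus not shown to be a TOP tract. A run of at least 8 such bases lay in this window for 9 of the 45 members in the table (20%) and for 13.9% of all 27025 genes in it. An annotated start can lie away from the start used in these cells, so a short run says only that these letters are not in this window.

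Values are FPKM, read fragments per kilobase of transcript and relative to all mapped fragments of the library, and they summed to between 311846 and 341145 per library. Judged from the steps between low values, 1 FPKM on a 1 kb transcript was worth roughly 36.9 to 43.9 reads, depending on the library. Zfp488 itself was at 6.61 and 5.29 FPKM in WT, against 4.82 and 4.11 FPKM in KO, which checks the labels only weakly since the sources used here do not describe how the allele was built. Lineage markers were present in every library (13 genes, summed FPKM of 2591 to 3054). Markers of endothelial cells and pericytes (6 genes) summed to 38.0 FPKM in WT 2 and 37.6 in KO 2 but to 0.454 in WT 1 and 0.038 in KO 1. Cldn5, an endothelial tight junction gene, was at 0 FPKM in WT 1 and at 0.035 in KO 1, against 26.8 and 26.3 in WT 2 and KO 2. Rgs5 was at 0.449 FPKM in WT 1 and at 0 in KO 1, against 9.90 and 9.38 in WT 2 and KO 2. Pecam1, Flt1, Kdr and Pdgfrb lay between 0 and 1.953 FPKM in every library, so these sums rest mainly on Cldn5 and Rgs5. The libraries numbered 2 also had more of the astrocyte markers (6 genes, 168 and 256 FPKM against 90.3 and 115) and of the microglia markers (5 genes, 9.25 and 9.95 FPKM against 1.45 and 4.08). The 8 neuron markers summed to 15.8 and 31.9 FPKM in WT and to 20.8 and 40.3 FPKM in KO, and this sum followed Tubb3, the most abundant of them. Snap25 (WT 3.46 and 5.06 FPKM, KO 6.835 and 6.815 FPKM) and Stmn2 (WT 1.35 and 0.503 FPKM, KO 3.67 and 6.57 FPKM) were higher in both KO libraries. Syt1 was lower in both (WT 0.316 and 0.354 FPKM, KO 0.225 and 0.251 FPKM), and the other neuron markers overlapped between the genotypes. The part of neurons in the results was not tested. Both genotypes have a library of each kind.

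Translation factors were abundant and differed little between the genotypes. Together the 60 rows held 1.34% and 1.24% of all FPKM in WT and 1.28% in each KO library. Among the 56 members that passed the filter (FPKM of at least 1 in at least 2 libraries), the median level was 42.2 and 45.1 FPKM in WT and 38.5 and 37.6 in KO, against 5.91 to 6.42 FPKM over all 10754 tested rows. A mean of at least 100 FPKM was reached by 14 members, 29 lay between 10 and 100, and 13 lay under 10. Of the 60 members 16 shared over 10% of their 50-base windows with annotated transcripts of other genes, among them Eif3d (42.1%), Eif4a1 (33.3%) and Eif1 (31.6%), and reads of such genes can be divided with their copies or overlapping neighbours.

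The 4 members that did not pass the filter were Eif4g3, a scaffold related to eIF4G1 (0.23 to 0.406 FPKM), Eef2k, the kinase that inhibits eEF2 (0.525 to 0.915 FPKM), and Eif4e1b and Eif2c5, both listed at 0 in all 4 libraries. Eif4e1b is a germline relative of eIF4E. Eif2c5 is an older name from the Argonaute family (synonym Ago5 in RefSeq, a non-coding gene), so it matches by name and is no translation factor.

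**Figure D1:**
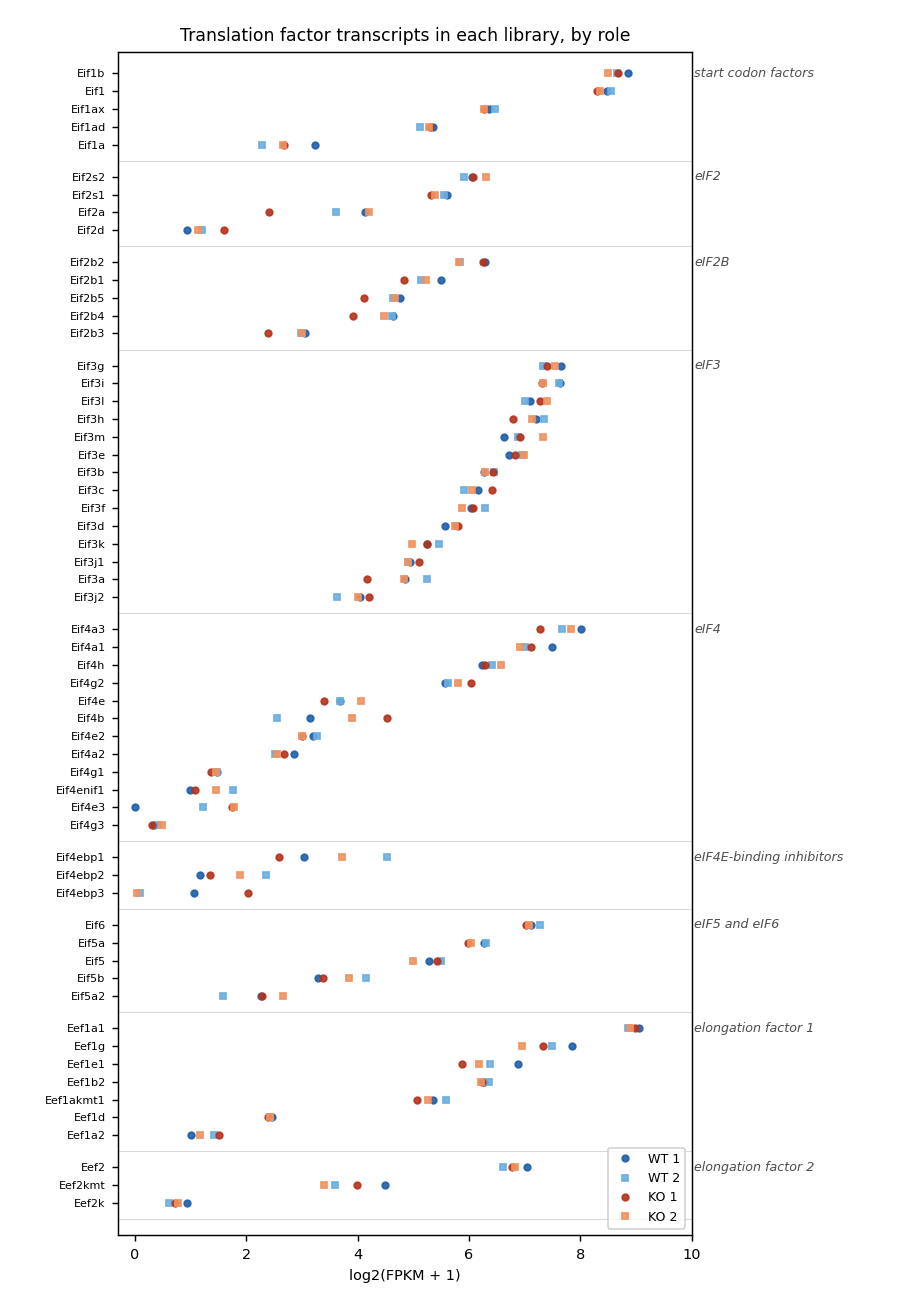
Level of 58 of the 60 translation factor genes in each library, as log2(FPKM + 1), grouped by role and sorted by mean level within a role; the 2 genes at 0 in all libraries are left out. Blue symbols are WT and red or orange symbols KO, with circles for the libraries numbered 1 and squares for those numbered 2. Eef1a1, Eif1b and Eif1 lie at the right with all 4 libraries close together, while Eif4b and the eIF4E-binding inhibitors are spread out.

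No member passed the test between genotypes. With limma on log2(FPKM + 1), fitted over all 10754 rows, 0 of 56 members had an adjusted p under 0.05 (smallest 0.859), as did 0% of all rows. At an unadjusted p under 0.05 there was 1 member, Eif4b, higher in KO, beside 2.81% of all rows higher and 2.85% lower. For 16 members each KO library lay under each WT library (28.6%), against 18.3% of all tested rows, and for 7 members each lay above (12.5%), against 16.6% of all rows. The groups overlapped for the other 33. After the libraries were rescaled to TPM, which moved the median of all rows by 0.095 on the log2 scale, the split turned to 10 lower (17.9%) and 13 higher (23.2%), against 13.1% and 21.7% of all rows. Which direction held more members thus depended on the scaling. In sorted cells measured in bulk, fewer cells of a type and less RNA per cell cannot be told apart.

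Over the 56 members the log2 fold change (KO over WT) had a median of -0.095, against 0 over all tested rows, and -0.003 and 0.095 after rescaling to TPM. Large differences were few, since 4 members (7.14%) differed by more than 1.5-fold on the log2(FPKM + 1) scale, against 18.9% of all rows. They were Eif4b and Eif4e3, higher in both KO libraries, Eef1e1, lower in both, and Eif4ebp1, which overlapped. The shares were not matched for level, and the members were more abundant than the typical row. The part of level in the lower share was not tested. For 43 members the wider of the 2 gaps within a genotype exceeded the difference between the genotypes. Taking the wider gap favours this outcome, and the share over all rows was not computed.

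**Figure D2:**
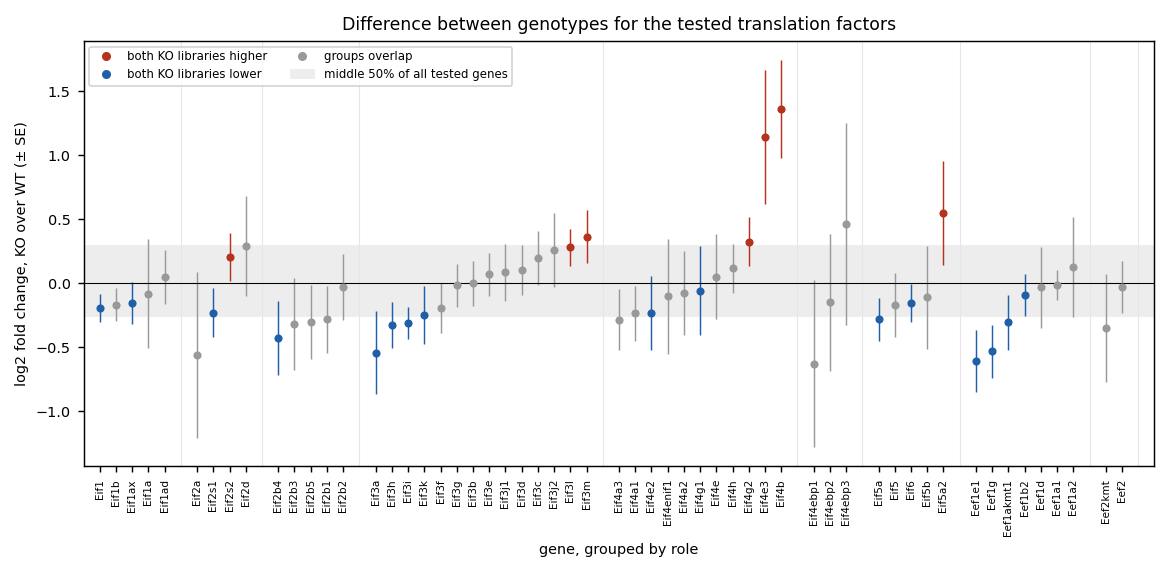
Log2 fold change of KO over WT for the 56 tested translation factors, with the SE from limma as bars, grouped by role; the grey band holds the middle 50% of all tested genes (-0.253 to 0.295). Red marks genes with both KO libraries above both WT libraries, blue those with both below, and grey those that overlap; Eif4b (1.36) and Eif4e3 (1.14) lie highest and no gene passed the test.

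Among the start codon factors, which help the ribosome recognise the first AUG, Eif1b and Eif1 were the most abundant. Eif1b was at 460.5 and 401.2 FPKM in WT, against 407.6 and 360.0 FPKM in KO, with overlapping groups. Eif1 was at 355.0 and 374.1 FPKM in WT, against 314.0 and 324.5 FPKM in KO, with both KO libraries lower (log2 fold change -0.19, SE 0.11; limma adjusted p = 0.914). Eif1ax, one of the genes for eIF1A, was also lower in both KO libraries, at 81.4 and 87.8 against 75.7 and 76.4 FPKM. The KO mean was 87.6% of the WT mean for Eif1 and 89.9% for Eif1ax, and neither difference passed. After removal of the level and length trends Eif1 differed by 0.067 and Eif1b by 0.129, so their direction depended on the correction. Eif1a, an autosomal copy of eIF1A, was far lower than Eif1ax, at 8.36 and 3.84 FPKM in WT, against 5.41 and 5.33 FPKM in KO. Eif1ad, whose product has an eIF1A-like domain, lay between 33.6 and 40.1 FPKM with overlapping groups.

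The subunits of eIF2, which carries the initiator tRNA, went in different directions. Eif2s1, the alpha subunit on which the stress kinases act, was at 47.7 and 46.0 FPKM in WT, against 38.7 and 40.9 FPKM in KO (log2 fold change -0.23, SE 0.19). Eif2s2, the beta subunit, was at 65.1 and 59.2 FPKM in WT, against 66.1 and 77.8 FPKM in KO (0.21, SE 0.19). Both KO libraries were thus lower for the alpha subunit and higher for the beta subunit, and neither passed (limma adjusted p = 0.942 and 0.949). Eif2a, a separate factor that can deliver initiator tRNA, was at 16.6 and 11.2 FPKM in WT, against 4.32 and 17.4 FPKM in KO, where KO 1 alone was low. Without KO replicate 1 its difference turned from -0.56 to 0.333. Eif2d, which acts in recycling and reinitiation, was low in all libraries (0.922 to 2.02 FPKM).

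All 5 subunits of eIF2B, the exchange factor for eIF2, had a log2 fold change below 0, as did 5376 of the 10754 tested rows. The median of the 5 was -0.304 (-0.216 after rescaling to TPM). The lower values came mainly from KO 1. Eif2b4, the delta subunit, was at 23.7 and 23.5 FPKM in WT, against 14.04 and 21.2 FPKM in KO, and is the 1 subunit with both KO libraries below both WT libraries (log2 fold change -0.43, SE 0.29; limma adjusted p = 0.928). Eif2b5, the catalytic epsilon subunit, was at 26.0 and 23.9 FPKM in WT, against 16.3 and 24.5 FPKM in KO. Eif2b1, the alpha subunit, was at 44.3 and 34.1 FPKM in WT, against 27.6 and 36.7 FPKM in KO. For both, KO 2 lay among the WT values. Without KO replicate 1 the fold change of Eif2b4 was -0.147, that of Eif2b5 -0.025 and that of Eif2b1 -0.082. Eif2b3, the gamma subunit, was at 7.26 and 6.88 FPKM in WT, against 4.24 and 6.998 FPKM in KO, again with KO 1 low. Eif2b2, the beta subunit and the most abundant of the 5, was at 77.1 and 56.6 FPKM in WT, against 75.6 and 55.5 FPKM in KO, a pattern that followed the library number and not the genotype. Its log2 fold change of -0.028 turned above 0 after rescaling to TPM, and lay between -0.249 and 0.192 over the 15 alternatives.

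The 14 eIF3 genes encode the complex that bridges the small subunit and the cap-binding factors. They showed no common direction, with 4 lower and 2 higher in both KO libraries (28.6% and 14.3%), against 18.3% and 16.6% of all tested rows. The other 8 overlapped, and the median log2 fold change of the 14 was 0.036 (0.135 after rescaling to TPM). With TPM the split turned to 2 lower and 6 higher, against 13.1% and 21.7% of all rows. Eif3g was the most abundant, at 200.6 and 159.9 FPKM in WT, against 168.2 and 186.4 FPKM in KO. Eif3i, a beta-propeller subunit, had the tightest values, at 197.9 and 195.0 FPKM in WT, against 157.4 and 159.3 FPKM in KO. Both KO libraries were lower for Eif3i by much more than either pair's gap (log2 fold change -0.31, SE 0.13), yet it did not pass over all rows (limma adjusted p = 0.885). The third subunit of that module, Eif3b, was at 76.2 and 86.5 FPKM in WT, against 85.2 and 77.4 FPKM in KO, with nearly equal means (81.4 and 81.3 FPKM).

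The octamer that forms the body of eIF3 is made of subunits a, c, e, f, h, k, l and m. Within it both KO libraries were lower for 3 genes and higher for 2, against 18.3% and 16.6% of all tested rows. With TPM 1 was lower and 3 were higher, against 13.1% and 21.7% of all rows. Eif3l was at 136.0 and 127.2 FPKM in WT, against 153.1 and 167.7 FPKM in KO (log2 fold change 0.28, SE 0.14; limma adjusted p = 0.914). Eif3m was at 97.9 and 116.3 FPKM in WT, against 119.2 and 159.4 FPKM in KO. In these 2 genes each KO library exceeded each WT library. Lower were Eif3h, at 146.9 and 162.9 FPKM in WT against 109.4 and 138.8 in KO (log2 fold change -0.33, SE 0.18; limma adjusted p = 0.914), and Eif3a, the largest subunit, at 27.9 and 36.8 against 17.1 and 27.6 FPKM. The difference of Eif3h was -0.156 without KO replicate 1 and -0.497 without KO replicate 2. Eif3k was at 36.9 and 42.9 FPKM in WT, against 36.8 and 30.4 FPKM in KO, with WT 1 and KO 1 nearly equal. Eif3c, Eif3e and Eif3f overlapped between the groups, within 57.9 and 125.3 FPKM. Outside the octamer, Eif3d, which can bind the cap of selected messages, lay between 46.4 and 54.5 FPKM, and the loosely bound subunit j was read from Eif3j1 (28.8 to 33.5 FPKM) and Eif3j2 (11.4 to 17.3 FPKM). Eif3j1 and Eif3j2 share most of their sequence, as 91.8% of the 50-base windows of Eif3j2 occur in annotated transcripts of other genes, mainly Eif3j1, so the division of reads between them is uncertain.

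**Figure D3:**
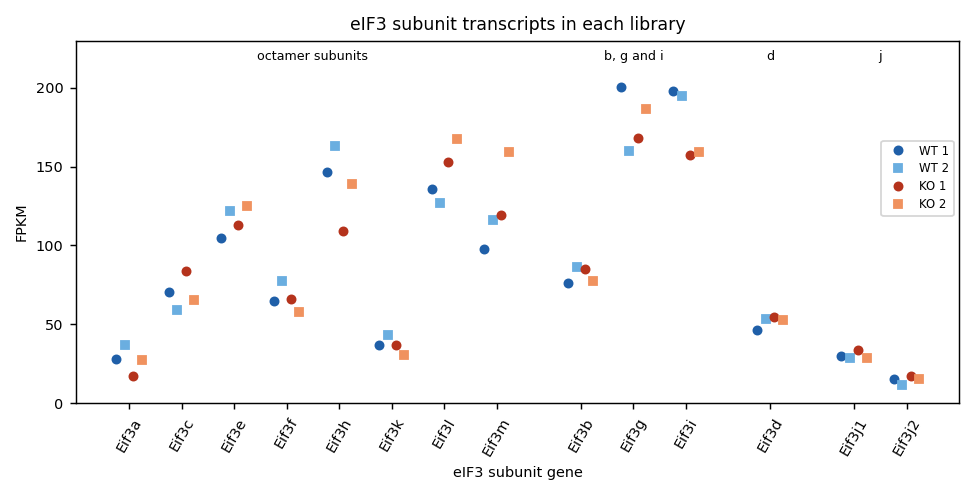
FPKM of the 14 eIF3 subunit genes in each library, grouped as octamer subunits, subunits b, g and i, subunit d and subunit j. Symbols are as for the plot of levels; Eif3i is lower and Eif3l higher in both KO libraries, while most subunits overlap, and levels run from 11.4 FPKM (Eif3j2) to 200.6 FPKM (Eif3g).

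In the eIF4 group, which recruits the messenger RNA, Eif4b had the largest difference of all members on the log2(FPKM + 1) scale with all 4 libraries. With a pseudocount of 0.1 or 0.5, after rescaling to TPM, or without WT replicate 2 or KO replicate 1, that of Eif4e3 was larger. Eif4b encodes an RNA-binding cofactor of the eIF4A helicase and lies on chromosome 15 (GRCm38, 102073773 to 102097173, plus strand). It was at 7.81 and 4.89 FPKM in WT, against 22.1 and 13.9 FPKM in KO. Both KO libraries lay above both WT libraries, with group means of 6.35 ± 2.06 and 18.0 ± 5.82 FPKM (SD, n = 2), or 2.83-fold. The log2 fold change was 1.36 (SE 0.38), with an unadjusted p of 0.0162 and an adjusted p of 0.859 by limma. Over the 15 alternatives it lay between 1.04 and 1.68, and over the 13 of them that have a test its adjusted p by limma lay between 0.413 and 1. The sequence is nearly unique among annotated transcripts, with 1.31% of its 50-base windows found in another gene, and the values stand for roughly 828 to 3372 reads per library.

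Of the 11 tested genes of this group, 3 were higher in both KO libraries (27.3%) and 2 lower (18.2%), against 16.6% and 18.3% of all tested rows. With TPM 4 were higher and 1 lower, against 21.7% and 13.1% of all rows. Before rescaling, the higher genes beside Eif4b were Eif4e3 and Eif4g2. Eif4e3, a cap-binding relative of eIF4E, was listed at 0 FPKM in WT 1, at 1.34 in WT 2, and at 2.34 and 2.42 in KO 1 and KO 2 (log2 fold change 1.14, SE 0.53; limma adjusted p = 0.902). A value of 0 can be a failed estimate, and the difference was 0.528 without WT replicate 1, 1.76 without WT replicate 2, 1.94 after rescaling to TPM and 2.71 with a pseudocount of 0.1. Eif4g2, which encodes a scaffold that works without eIF4E (DAP5), was at 46.6 and 48.2 FPKM in WT, against 64.7 and 55.0 FPKM in KO, higher in both KO libraries (0.33, SE 0.19; limma adjusted p = 0.915).

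The cap-binding proteins and helicases differed by less. Eif4e was at 11.8 FPKM in each WT library and at 9.58 and 15.7 FPKM in KO, on either side of WT. Eif4e2, which encodes a competitor of eIF4E at the cap, was at 8.16 and 8.62 FPKM in WT, against 7.04 and 6.98 FPKM in KO. Eif4a1, the main helicase gene, was at 179.4 and 126.8 FPKM in WT, against 136.9 and 119.9 FPKM in KO. Eif4a3, a component of the exon junction complex despite its name, was the most abundant of the group, at 256.9 and 203.8 FPKM in WT, against 154.6 and 228.0 FPKM in KO. In Eif4a1 WT 1 was high and in Eif4a3 KO 1 was low. Eif4h, a further helicase cofactor, lay between 73.9 and 94.7 FPKM, Eif4enif1, a shuttle protein of eIF4E, between 0.972 and 2.38 FPKM, and Eif4g1, the main scaffold gene, between 1.59 and 1.78 FPKM. Of the genes in this paragraph Eif4e2 and Eif4g1 had both KO libraries below both WT libraries, and the others overlapped.

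The eIF4E-binding proteins, which block cap-dependent initiation until mTOR phosphorylates them, varied more between libraries of a genotype than between genotypes. Eif4ebp1 was at 7.21 and 22.1 FPKM in WT, against 5.01 and 12.2 FPKM in KO. Eif4ebp2 was at 1.25 and 4.14 FPKM in WT, against 1.56 and 2.68 FPKM in KO. Both genes were higher in the libraries numbered 2 of each genotype, which also had the higher sums of endothelial, astrocyte and microglia markers. The part of those cells in the difference was not tested. Eif4ebp3 went the other way, at 1.07 and 0.06 FPKM in WT, against 3.07 and 0.022 FPKM in KO, and 65.5% of its 50-base windows are shared with an overlapping gene model. Its lowest value corresponds to under 1 read (about 0.65). None of the 3 passed (smallest limma adjusted p = 0.958), and their directions turned when single libraries were left out.

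Of the 5 eIF5 and eIF6 genes, 4 had a log2 fold change below 0, as did 5376 of the 10754 tested rows. The median of the 5 was -0.152, and -0.053 after rescaling to TPM. Eif5a, which carries the hypusine residue and eases the formation of difficult peptide bonds, was at 76.4 and 78.4 FPKM in WT, against 62.5 and 64.6 FPKM in KO (log2 fold change -0.28, SE 0.17; limma adjusted p = 0.915). Both KO libraries were lower, and the gap within each genotype was small. Its relative Eif5a2 was higher in both KO libraries, at 3.82 and 1.98 FPKM in WT, against 3.89 and 5.29 FPKM in KO (0.55, SE 0.41; limma adjusted p = 0.935), although WT 1 and KO 1 nearly coincide. The difference of Eif5a2 was 0.202 without WT replicate 2, 0.369 without KO replicate 2 and 0.897 without WT replicate 1. Eif6, which keeps the large subunit from joining too early, was at 138.3 and 154.9 FPKM in WT, against 129.5 and 133.7 FPKM in KO (-0.15, SE 0.15), a difference of 0.053 after removal of the level and length trends. Eif5, the activator of GTP hydrolysis on eIF2, lay between 31.1 and 44.2 FPKM, and Eif5b, the GTPase of subunit joining, between 8.83 and 16.7 FPKM, both with overlapping groups.

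Among the elongation factor 1 genes, both KO libraries were lower for 4 of 7 and higher for 0 (18.3% and 16.6% of all tested rows), with a median log2 fold change of -0.088 (0.010 after rescaling to TPM, where 3 were lower and 1 higher, against 13.1% and 21.7% of all rows). Eef1a1, which delivers aminoacyl-tRNA to the ribosome, was the most abundant member of all, at 529.7 and 465.4 FPKM in WT, against 507.0 and 476.7 FPKM in KO. Its groups overlapped and the log2 fold change was -0.014 (SE 0.12). Eef1g, a subunit of the exchange factor that recharges eEF1A, was at 229.9 and 179.5 FPKM in WT, against 159.3 and 123.4 FPKM in KO, with both KO libraries lower (-0.53, SE 0.21; unadjusted p = 0.0501, limma adjusted p = 0.881). Of its 50-base windows 64.3% are shared with other annotated genes, mostly unnamed Gm models, and for Eef1a1 the share was 60.6%, so reads of these genes may be divided with copies. Eef1e1, whose product (AIMP3) sits in the tRNA synthetase complex, was at 116.8 and 82.6 FPKM in WT, against 57.5 and 71.7 FPKM in KO (-0.61, SE 0.25; limma adjusted p = 0.885). Without WT replicate 1 the difference of Eef1e1 was -0.358, which is under 1.5-fold. That of Eef1g was -0.354 without WT replicate 1 and -0.349 without KO replicate 2.

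The remaining genes of this family were steadier. Eef1akmt1, a lysine methyltransferase acting on eEF1A, was at 40.1 and 46.9 FPKM in WT, against 32.7 and 37.4 FPKM in KO (log2 fold change -0.30, SE 0.22). Eef1b2, the exchange subunit, was at 76.7 and 81.2 FPKM in WT, against 74.7 and 73.7 FPKM in KO. Eef1d, another exchange subunit, was at 4.48 and 4.35 FPKM in WT, against 4.21 and 4.38 FPKM in KO, below Eef1b2 and Eef1g; whether this low value is a fault of the FPKM estimate was not tested. The elongation factor 2 genes overlapped: Eef2, which moves the ribosome by a codon, was at 130.6 and 96.8 FPKM in WT, against 107.8 and 112.6 FPKM in KO, and Eef2kmt, which methylates it, at 21.5 and 11.1 against 14.97 and 9.54 FPKM. For Eef2 the fold change of -0.029 turned to 0.07 after rescaling to TPM, and for Eef2kmt WT 1 was high.

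Related genes differed widely in level within each library, on the FPKM scale, which is per length. Eef1a1 was 274 to 531 times as high as Eef1a2, the form of neurons and muscle, which was at 0.997 and 1.67 FPKM in WT, against 1.85 and 1.23 FPKM in KO. Eif4a1 was 24.8 to 28.8 times as high as Eif4a2, which lay between 4.72 and 6.24 FPKM. Eif4g2 was 26.2 to 40.8 times as high as Eif4g1, and Eif4g1 was 4.31 to 6.89 times as high as Eif4g3. These orders held in each of the 4 libraries. The low values of Eif4a2 and Eif4g1 could be a fault of the FPKM estimates, which was not tested, so the sizes of these ratios are uncertain. Eif1ax exceeded Eif1a 9.74 to 22.8 times, Eif4ebp1 exceeded Eif4ebp2 3.22 to 5.78 times, Eif3j1 exceeded Eif3j2 1.92 to 2.53 times, and Eif1b exceeded Eif1 by only 1.07 to 1.3 times.

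The ratios were also compared between the genotypes. On the log2(FPKM + 1) scale the ratio of Eif5a to Eif5a2 was 4.005 and 4.74 in WT and 3.70 and 3.38 in KO, lower in both KO libraries (difference -0.83, and -0.984 with a pseudocount of 0.1). It was -0.464 without WT replicate 2 and -1.20 without WT replicate 1. The ratio of Eif4g1 to Eif4g2 was -4.10 and -4.15 in WT and -4.67 and -4.35 in KO (difference -0.38, and -0.224 without KO replicate 1). The ratio of Eif4a1 to Eif4a2 was 4.64 and 4.48 in WT and 4.43 and 4.37 in KO (difference -0.16, and -0.079 without WT replicate 1). That of Eif4ebp1 to Eif4ebp2 differed by -0.48, and by -0.174 without KO replicate 1. The groups did not overlap for these 4 of 10 ratios. No such share was computed for other pairs of genes, so this count is not read as a difference between the genotypes. An exact permutation test of 2 against 2 libraries was not used, since it cannot give a p under 0.05.

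**Figure D4:**
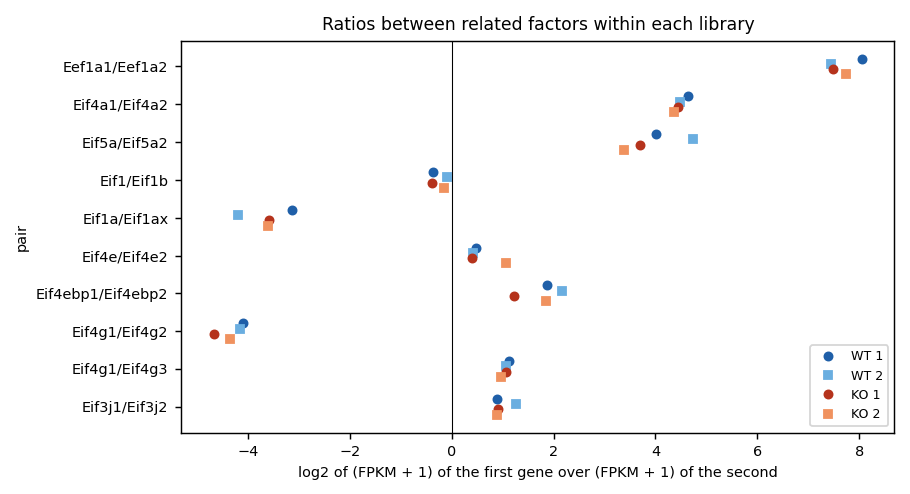
Ratio of related factors within each library, as log2 of the first gene's FPKM + 1 over the second's, for 10 pairs. Symbols are as for the plot of levels; Eef1a1 over Eef1a2 lies between 7.45 and 8.05, Eif4g1 lies below Eif4g2 in all libraries, and the KO libraries lie left of the WT libraries for Eif5a over Eif5a2.

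The 9 factors listed as TOP messages did not move together. Both KO libraries were lower for 3 (Eef1g, Eif3h and Eef1b2) and higher for 1 (Eif4b), against 18.3% and 16.6% of all tested rows. The other 5 overlapped, and the median log2 fold change of the 9 was -0.032 (0.056 after rescaling to TPM). With TPM 2 of the 9 were lower and 3 higher, against 13.1% and 21.7% of all rows. Of the genes whose starts are shown above, Eif3f and Eef1a1, with the longest runs of C and T, had overlapping groups. So did Eef2, with the shortest run. The 76 genes of cytosolic ribosomal proteins, whose messages are TOP messages too, had both KO libraries lower for 64 and higher for 0 (median -0.301), against 18.3% and 16.6% of all tested rows. After rescaling to TPM 49 were lower and 2 higher, against 13.1% and 21.7% of all rows. These genes have a median transcript length of 1100 bases, against 2555 for the factors and 2930 for all tested genes.

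Fold changes ran with transcript length over all genes, so the factors were set beside genes of like length. Over 6 equal groups of tested genes by length, the median log2 fold change went from -0.175 in the shortest group to 0.129 in the fifth and 0.089 in the longest. Among the factors, the 28 with the shorter transcripts had a median of -0.191 and the 28 with the longer ones of -0.044, against -0.105 and 0.082 for all genes on the same sides of 2555 bases. Of the shorter factors 11 (39.3%) were lower and 3 (10.7%) higher in both KO libraries, against 25.6% and 10.8% of all genes on that side. Of the longer factors 5 (17.9%) were lower and 4 (14.3%) higher, against 12.5% and 21.2%. Spearman's rho between length and fold change across the 56 members was 0.23, a description across genes of the same 4 libraries. The part of length in the lower values was not tested beyond the correction: after the level and length trends were removed, the median of the members was -0.081.

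**Figure D5:**
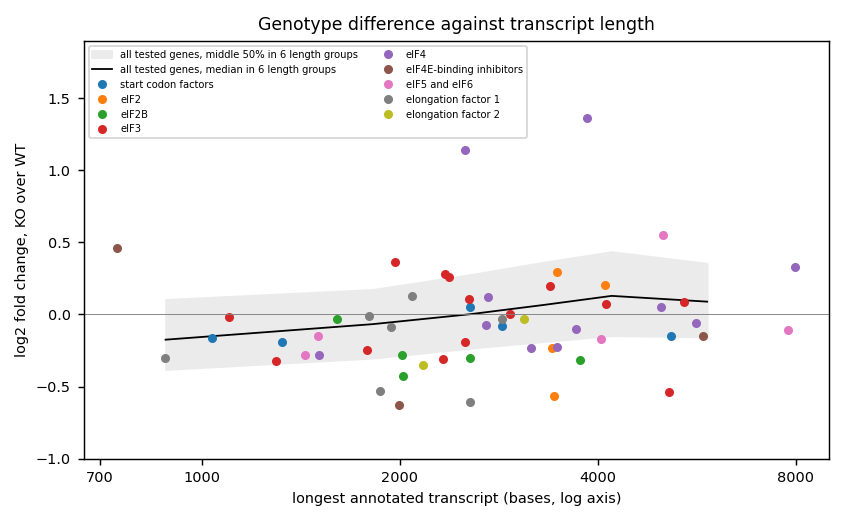
Log2 fold change of KO over WT for the 56 tested factors against the length of the longest annotated transcript (log axis), colored by role. The black line and grey band are the median and the middle 50% of all tested genes in 6 equal length groups, rising from -0.175 in the shortest to 0.129 in the fifth; Eif4b and Eif4e3 lie far above the band.

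Other genes of the translation pathway gave no call either, with 0 of 69 tested genes in 7 lists past the threshold by limma. Of 9 release and recycling genes, both KO libraries exceeded WT for 3 and lay under WT for 1, against 16.6% and 18.3% of all tested rows. Pelo, which rescues stalled ribosomes, was at 4.08 and 1.95 FPKM in WT, against 6.38 and 9.92 FPKM in KO (log2 fold change 1.21, SE 0.44; limma adjusted p = 0.865). Gspt2, a form of the release factor eRF3, was at 5.49 and 2.29 FPKM in WT, against 8.38 and 9.85 FPKM in KO. Of 22 cytosolic tRNA synthetase genes, 4 were higher (18.2%) and 1 lower (4.55%), beside the same shares of all rows. The largest of these differences, that of Iars, the isoleucine enzyme, was 1.19 (SE 0.45), from 4.28 and 1.80 FPKM to 9.44 and 6.40 FPKM.

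Genes that regulate the factors ranged widely in level. Of 6 genes of eIF2 kinases and phosphatase subunits, 4 were tested and all overlapped, and Eif2ak2 and Eif2ak4 were at most at 0.48 and 0.574 FPKM in any library, while Eif2ak1, a kinase of eIF2 alpha, lay between 17.8 and 28.2 FPKM. Of 13 genes of mTOR and MNK control, 10 were tested, with 1 lower and 1 higher. Beside this and the counts below, 18.3% of all tested rows were lower and 16.6% higher. Rheb, the GTPase that activates mTOR, was at 140.0 and 163.7 FPKM in WT, against 121.0 and 157.9 FPKM in KO, with overlapping groups. Mknk2, a kinase of eIF4E, was at 0.981 and 2.93 FPKM in WT, against 4.44 and 4.15 FPKM in KO. Of 9 genes that make hypusine on eIF5A and diphthamide on eEF2, 3 were lower and 1 higher. Dhps, the enzyme that starts hypusine synthesis, was at 14.2 and 11.1 FPKM in WT, against 9.66 and 6.66 FPKM in KO (log2 fold change -0.59, SE 0.33; limma adjusted p = 0.914), lower in both KO libraries as was its substrate Eif5a. Of 6 tested poly(A)-binding genes 2 were higher and 1 lower, and of 9 mitochondrial translation factors 1 was higher and 2 lower.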

How the data were processed

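RNA was sequenced from O4 and GalC positive cells in 4 libraries. Total RNA came from the RNeasy Micro Kit and libraries from an Illumina kit, per the labels' protocols. The deposited values are FPKM computed by the authors, 1 column per library. The submitters' processing notes name TopHat and mm10; the FPKM program, annotation, strand setting and filters are not stated there, so a gene's reads cannot be separated from those of an overlapping or antisense neighbour.

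Values were analysed as log2(FPKM + 1), which understates changes of low genes. Rows with FPKM of at least 1 in at least 2 libraries (10754 of 35869) entered limma (3.58.1, R 4.3.3) (genotype, mean-variance trend, Benjamini-Hochberg adjustment over all tested rows, threshold 0.05, two-sided), after a check on simulated data. Lists are described by counts and medians. Total reads are not given; reads per FPKM were judged from low values multiplied by transcript length and are approximate. Transcript lengths and shared 50-base windows came from GENCODE M21 (GRCm38), with lengths for 93.7% of tested rows. Named genes were, per role, the most abundant, the 3 with the smallest p, the paralog pairs and those not tested; other members are given by values. In the other lists the 3 with the smallest p could be named. Members and lists were chosen with earlier results of these data known.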

Additional observations from a re-analysis of the deposited data

How the results depend on the processing

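Under each of the 13 alternatives that have a test 0 members passed the threshold (smallest adjusted p of a member 0.413, by limma) and 0 of all rows did; the other 2 remove trends and give fold changes only. After rescaling to TPM, 10 members were lower and 13 higher in both KO libraries and the median was -0.003; with FPKM of at least 5 the median was -0.152. Leaving out single libraries, which leaves a group with 1 library that is assumed to vary like the others and so makes separation easier, gave 23 to 31 lower members (32.7% to 36.6% of all rows), 11 to 16 higher members (30.5% to 35.5% of all rows) and medians of -0.084 to -0.053. The count of lower members was highest without WT replicate 2. Leaving out a single library moved the fold change of 20 of the 26 named members by over 1.5 times or turned it, and that of Eif1, Eif2s1, Eif3i, Eif3l, Eif4b and Eif5a by less. Of 386 fold changes of 26 members under the alternatives, 368 kept their direction and 18 turned. Eef2 turned with TPM (0.07), quantile normalization (0.111), removal of the level trend (0.093) and of the level and length trends (0.049), and lay between -0.244 and 0.186 with single libraries left out. Eif1b turned when values were quantile normalized (0.023) or freed of the level trend (0.004) or both trends (0.129), and both trends turned Eif1 (0.067) and Eif6 (0.053). With single libraries left out, Eef2kmt lay between -0.795 and 0.097, Eif4ebp1 between -1.37 and 0.119, Eif4ebp2 between -0.744 and 0.45, Eif4ebp3 between -0.537 and 1.46 and Eif2a between -1.46 and 0.333; the cause was not tested. With the library number as a replicate block, 0 members and 0 of all rows passed, and the counts of 16 lower and 7 higher members and the median of -0.095 stood, since a block does not move the means. The labels do not say what a shared number means; deviations of same-numbered libraries correlated at 0.289. Depth limits the lowest members, where Eif4ebp3 in KO 2 stands for about 0.65 reads.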
